A study of Mus musculus with 10 samples.

Results

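The genes described here were 39 trans-synaptic adhesion molecules, the cell-surface and secreted proteins that join an axon terminal to its target across the synaptic cleft. They were chosen by name as the listed members of 12 families or single genes, by a rule that uses no measured value, although earlier results of these data were known when the list was made. All 39 were found by symbol among the 54838 gene identifiers of the count files, and all 39 were among the 16806 genes with a CPM (counts scaled to library size) above 1 in at least 2 libraries. The study asked how ribosome-bound mRNA differs along the long axis of the mouse hippocampus in mossy cells, the glutamatergic neurons of the dentate hilus. Translating ribosome affinity purification (TRAP) pulls down tagged ribosomes with their mRNA. The mice were C57BL/6 males, about 10 weeks old and untreated, of the genotype MC-TRAP (Drd2-Cre;Eef1a1LSL.eGFPL10a/+), in which Cre made under Drd2 switches on a ribosomal protein fused to EGFP. The dorsal group held 5 libraries from the shorter dorsal stretch of the hippocampus, and the ventral group held 5 libraries from the longer remainder, with the ventral subiculum cut away. Each library came from a pool of 5 mice, and both groups carried the same alleles. Per the study's methods, hippocampi were split into dorsal and ventral parts before pooling, so both groups drew on the same mice. The sources used here do not say which dorsal and ventral libraries share mice, and the main test did not pair them. Drd2-Cre also labels sparse GABAergic interneurons and neurons of the ventral subiculum, so the precipitates were enriched for mossy cells and were not pure.

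Synapses are held together by pairs of adhesion proteins. On the axon side stand neurexins and the LAR-type receptor tyrosine phosphatases. Neurexins bind neuroligins, leucine-rich repeat transmembrane proteins (LRRTMs) and secreted cerebellins. The LAR-type phosphatases bind Slitrks, synaptic adhesion-like molecules (SALMs, encoded by the Lrfn genes) and IL1RAPL1. Teneurins and latrophilins bind each other and are found on either side, and FLRTs are a further partner of latrophilins. Mossy cells receive input from the mossy fibres of granule cells and send axons to granule cell dendrites, so a mossy cell uses both sets.

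Counts on genes ran from 11138676 to 20594364 per library, and library sizes behind the CPM were scaled by trimmed mean of M-values (TMM) factors. The share of read pairs on no annotated gene averaged 27.0% for dorsal libraries (SD 5.09) and 14.4% for ventral ones (SD 2.997, n = 5 each), and the groups did not overlap (two-sided exact permutation test, p = 0.00794). The mRNAs of the mitochondrial genome summed to 2773 to 3524 CPM in dorsal and 447 to 1257 in ventral libraries, with the same exact permutation p of 0.00794. Of 10 mossy cell markers, 8 passed the filter on low counts, and Csf2rb2 and Glipr1 did not. The 10 summed to 1739 to 2011 CPM in dorsal and 1808 to 2117 in ventral libraries. By the rule given below, 3 were dorsal-enriched (Gria2, Gria3 and Cyp26b1) and 2 ventral-enriched (Calb2 and Satb1). The sums hold opposite differences, with dorsal and ventral means of 1143 and 651 CPM for Gria2 and 65.2 and 616 for Calb2. They do not measure the share of mossy cells. Granule cell markers summed to 345 to 405 and 169.8 to 368 CPM, with 1 of 5, Prox1, dorsal-enriched. Interneuron markers summed to 3511 to 4736 CPM in dorsal and 4205 to 5509 in ventral libraries, with 0 of 10 called dorsal-enriched and 3 called ventral-enriched. Oligodendrocyte markers summed to 2603 to 3098 CPM in dorsal and 994 to 1847 in ventral libraries, with 5 of 8 dorsal-enriched. Astrocyte markers summed to 1980 to 2249 and 857 to 1457 CPM, with 4 of 8 dorsal-enriched and 1 ventral-enriched. Endothelial markers summed to 7.62 to 32.0 CPM in dorsal and 8.54 to 48.8 in ventral libraries, led by Flt1 (3.86 to 24.5 and 2.64 to 35.04 CPM), with 0 of 5 called. The part of these other cells and of the mitochondrial mRNAs in the adhesion gene results was not tested. In such pooled tissue, fewer cells of a type and less mRNA per cell cannot be told apart.

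Levels were first compared between genes, per kilobase of exon. Nrxn3 led the 39 genes, with 35.7 ± 5.21 CPM per kb in dorsal and 31.9 ± 2.01 in ventral libraries. Clstn1, a calsyntenin that also links vesicles to kinesin, followed at 26.4 ± 5.09 and 30.5 ± 5.41. Next stood Lrrtm2 (28.1 ± 1.73 and 19.2 ± 1.91) and Adgrl1, a latrophilin (25.1 ± 2.397 and 17.1 ± 1.55). The order of neighbours depended on the group. By mean, Clstn1 stood below Lrrtm2 in dorsal libraries, where the SD intervals overlapped, and above it in ventral ones, where they did not. The lowest levels belonged to Lrfn2 (0.943 ± 0.2797 and 0.506 ± 0.255), Ptprf (1.03 ± 0.242 and 1.105 ± 0.346) and Cbln2 (0.478 ± 0.187 and 1.76 ± 0.744). Within several families 1 gene held the larger part of the family sum. Nrxn3 made up 88.3% ± 4.295 of the neurexin sum in dorsal and 87.5% ± 2.47 in ventral libraries over the 2 neurexins listed, and Adgrl1 80.6% ± 2.98 and 77.5% ± 1.52 of the latrophilin sum. These orderings rest on annotated exonic lengths, and counts on a gene do not separate its isoforms.

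**Figure D1:**
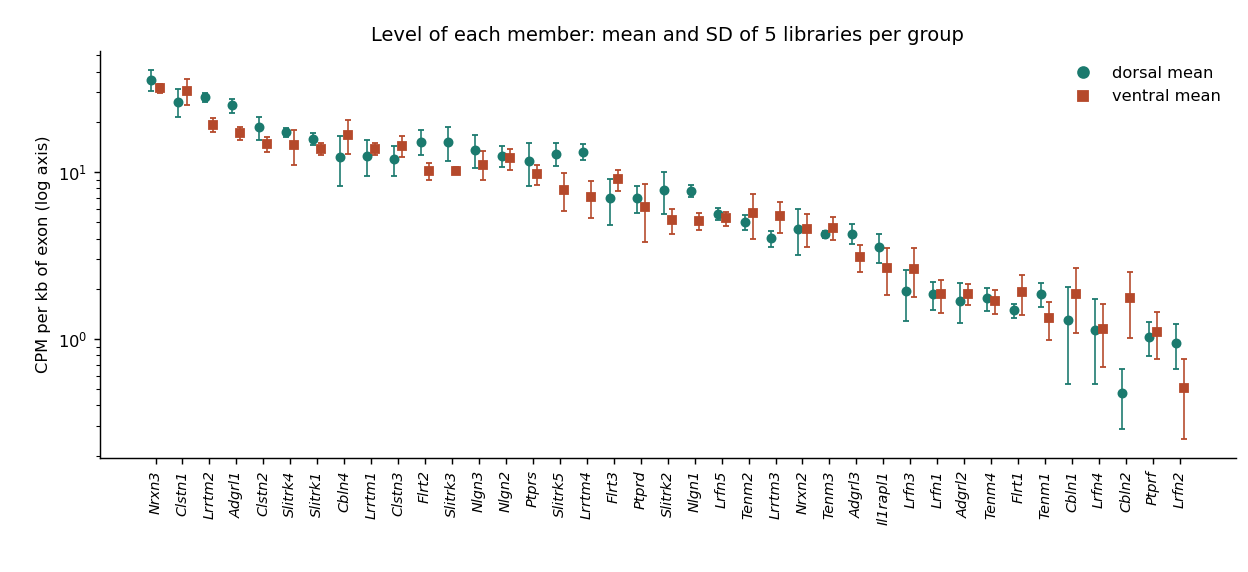
Mean level of each of the 39 genes in CPM per kilobase of exon (log axis), ordered by the mean over all 10 libraries, with bars for the SD over 5 libraries. Nrxn3 stands first and Lrfn2 last, and Cbln2 has the widest gap between groups, at 0.478 in dorsal and 1.76 in ventral libraries.

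Dorsal and ventral libraries were then compared for each gene. A gene was called enriched where edgeR's quasi-likelihood test gave a Benjamini-Hochberg adjusted p below 0.05 over all 16806 genes and the log2 ratio of mean CPM plus 1 exceeded 0.58, which is 1.5-fold. Of the 39 genes, 5 were dorsal-enriched (12.8%, against 15.7% of all genes tested) and 1 was ventral-enriched (2.56%, against 9.85%). Over protein-coding genes alone the shares called were 11.4% and 10.3%. The dorsal share was no higher than that over all genes. The 5 dorsal-enriched genes were Lrrtm4, Slitrk5, Nlgn1, Flrt2 and Slitrk2, which encode receptors of the receiving side, and the ventral-enriched gene was Cbln2, a secreted linker. On the adjusted p alone, Slitrk3, Lrrtm2, Adgrl1 and Adgrl3 were also higher in dorsal libraries, which made 9 genes higher, where 19% of all genes were, and 1 lower, where 14.6% were. Every dorsal library lay above every ventral library for 7 of the 39 genes (17.9%, against 9.81% of all genes). For 0 of 39 did every ventral library lie above every dorsal one (8.36% of all genes). The median log2 fold change, dorsal over ventral, was 0.10 over the 39 genes and -0.00 over all genes tested.

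By role, 0 of 5 axon-side genes, 0 of 7 genes of either side and 5 of 24 receiving-side genes (20.8%) were dorsal-enriched, against 15.7% of all genes tested and 11.4% of protein-coding ones. With so few genes a role, nothing is read from the difference between these shares. Their median log2 fold changes were 0.17, 0.03 and 0.24, and that of the 3 cerebellins was -0.55. Levels summed over the receiving-side genes were 237 to 273 CPM per kb in dorsal and 204 to 234 in ventral libraries, and the groups did not overlap. Sums over the axon-side genes were 55.9 to 67.2 and 52.1 to 55.4, which did not overlap by a narrow margin. Nrxn3 averaged 35.7 of the dorsal mean sum of 60.0. Without scaling to length, the axon-side sums did overlap, at 769 to 969 CPM in dorsal and 732 to 823 in ventral libraries. The receiving-side sums did not, at 1529 to 1669 and 1246 to 1405 CPM. The ratio of the axon-side to the receiving-side sum averaged 0.235 (SD 0.0257) in the 5 dorsal and 0.243 (SD 0.008903) in the 5 ventral libraries, a difference smaller than the dorsal SD.

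**Figure D2:**
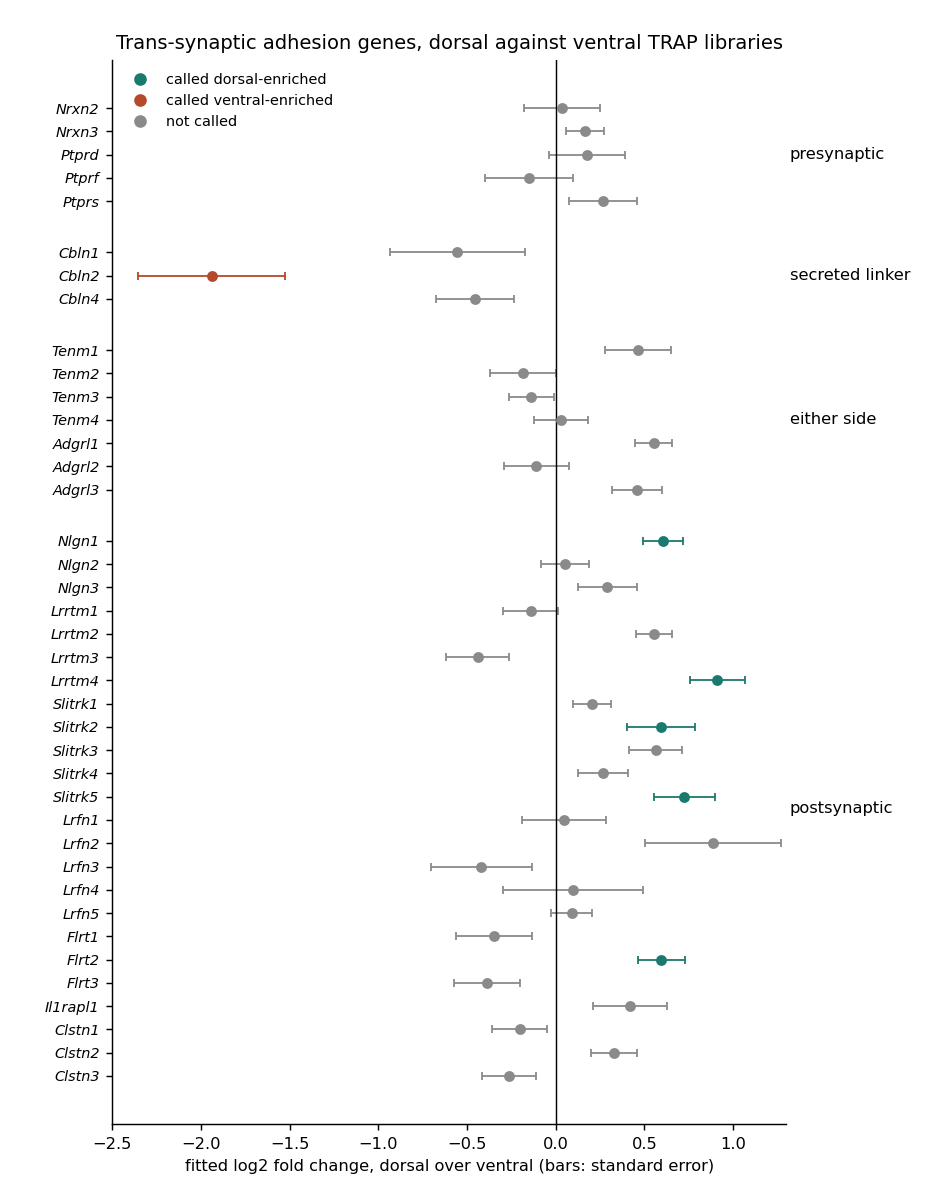
Fitted log2 fold change, dorsal over ventral, of the 39 genes, grouped by the side of the synapse they serve; bars are standard errors. The 5 dorsal-enriched genes all lie in the receiving-side group between 0.59 and 0.91, and Cbln2 stands alone at -1.94.

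On the axon side, 0 of 5 genes passed either part of the rule. Nrxn3 ranged over 354 to 525 CPM in dorsal and 364 to 434 in ventral libraries (log2 fold change 0.17, SE 0.11, edgeR adjusted p = 0.244). Nrxn2 gave 31.3 to 78.2 and 46.5 to 84.7 CPM (log2 fold change 0.03). Of the phosphatases, Ptprs had the largest estimate (log2 fold change 0.27, SE 0.19, edgeR adjusted p = 0.295), and Ptprd and Ptprf gave 0.18 and -0.15. For all 5 the libraries of the groups overlapped. Standard errors ran from 0.11 to 0.25. The lack of a call does not show that a gene was unchanged, least of all at the larger standard errors.

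The cerebellins, secreted proteins that bind neurexins, were each lower in dorsal libraries by estimate, and 1 of 3 passed. Cbln2 was 1.69, 1.95, 1.02, 1.62 and 0.629 CPM in dorsal libraries 1 to 5 and 6.55, 1.41, 4.98, 6.01 and 6.52 in ventral libraries 1 to 5. The fitted level was 3.84-fold higher in ventral libraries (log2 fold change -1.94, SE 0.41, edgeR adjusted p = 0.00335). Ventral library 2 alone lay within the dorsal range, and the counts behind these values ran from 8 to 138. Cbln4 was the main cerebellin, with 86.9% ± 6.798 of the family sum per kb in dorsal and 82.7% ± 4.58 in ventral libraries. Its level was 49.8, 29.6, 20.04, 44.6 and 35.6 CPM in dorsal and 64.03, 34.6, 49.5, 51.9 and 42.5 in ventral libraries (log2 fold change -0.46, SE 0.22, edgeR adjusted p = 0.124), and the groups overlapped. Cbln1, best known from cerebellar granule cells, was 3.29, 7.93, 2.39, 3.72 and 2.36 CPM in dorsal and 8.101, 2.73, 4.14, 8.03 and 5.43 in ventral libraries (log2 fold change -0.55, SE 0.38, edgeR adjusted p = 0.275). Without dorsal library 2, the highest dorsal one, Cbln1 was called ventral-enriched as well (log2 fold change -0.999, edgeR adjusted p = 0.0469). The Cbln2 share of the family was 3.48% ± 1.296 in dorsal and 8.37% ± 3.02 in ventral libraries, with overlap.

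Among proteins found on either side, 0 of 4 teneurins and 0 of 3 latrophilins passed both parts of the rule. Adgrl1 came nearest, at 183, 211, 234, 219.5 and 231 CPM in dorsal and 148, 164, 132, 136 and 156 in ventral libraries (log2 fold change 0.55, SE 0.10, edgeR adjusted p = 0.00145). Its groups did not overlap, and its log2 ratio of 0.55 fell under the 0.58 threshold. Adgrl3, which binds FLRTs and teneurins, was 93.8, 71.3, 66.99, 76.6 and 71.7 CPM in dorsal and 69.2, 54.1, 41.6, 56.8 and 51.98 in ventral libraries (log2 fold change 0.46, SE 0.14, edgeR adjusted p = 0.0233), with overlap. Adgrl2 did not pass (log2 fold change -0.11, SE 0.18, edgeR adjusted p = 0.6702). Annotated genes on the other strand lie over 15.6% of the exonic length of Adgrl1 and 8.91% of that of Adgrl3. The strand setting matters for their levels, and it is not given in the sources used here. Teneurin estimates were 0.46 for Tenm1, -0.18 for Tenm2, -0.14 for Tenm3 and 0.03 for Tenm4, each with overlapping groups. Tenm1 made up 14.5% ± 2.55 of the teneurin sum in dorsal and 9.92% ± 0.957 in ventral libraries.

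Of the 3 neuroligins, 1 passed, and the differences between their estimates were not tested. Nlgn1, the neuroligin of excitatory synapses (chr3:25426215-26332460, build GRCm38), was 108, 90.2, 112, 104 and 105 CPM in dorsal libraries 1 to 5 and 70.8, 63.5, 79.96, 68.2 and 59.3 in ventral libraries 1 to 5. All dorsal libraries stood above all ventral ones, and the level was 1.52-fold higher (log2 fold change 0.61, SE 0.11, edgeR adjusted p = 0.00144). Nlgn2, the neuroligin of inhibitory synapses, was 55.9, 80.8, 83.2, 70.1 and 72.99 CPM in dorsal and 72.7, 68.8, 53.4, 80.2 and 74.3 in ventral libraries (log2 fold change 0.05, SE 0.14, edgeR adjusted p = 0.789). Nlgn3, present at both kinds of synapse, was 173, 97.6, 115, 132 and 115 and 83.3, 86.98, 130.3, 96.6 and 118 CPM (log2 fold change 0.29, SE 0.16, edgeR adjusted p = 0.182). The groups overlapped for both of them. Nlgn1 held 22.8% ± 1.02 of the neuroligin sum per kb in dorsal libraries, with a range of 21.5% to 23.8%, and 18.1% ± 2.202 in ventral ones, with a range of 14.8% to 20.4%, so its share did not overlap either. The shares were taken without correction for GC content. Under the correction for GC content and exonic length described below, Nlgn1 no longer had the largest estimate. The log2 fold changes were then 0.13 for Nlgn1, 0.15 for Nlgn2 and 0.19 for Nlgn3. Another annotated gene, Gm21986, lies over 41.2% of the exonic length of Nlgn3, and A830092H15Rik, on the other strand, over 9.16% of that of Nlgn1. Gm21986 is on the same strand as Nlgn3, so no strand setting would separate the 2 genes. Read pairs on both may have been set aside as ambiguous, which would lower the Nlgn3 level per kb and its share. For A830092H15Rik the strand setting matters, and it is not given in the sources used here.

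The LRRTMs, postsynaptic ligands of neurexins, held the dorsal-enriched gene with the largest fold change. Lrrtm4, which also binds heparan sulfate proteoglycans such as glypicans (chr6:80018877-80810143), was 76.6, 72.2, 80.5, 83.9 and 94.8 CPM in dorsal libraries 1 to 5 and 45.5, 29.9, 59.5, 43.2 and 38.996 in ventral libraries 1 to 5. The lowest dorsal library stood above the highest ventral one, and the mean level was 81.6 ± 8.58 CPM against 43.4 ± 10.8 (SD, n = 5 each). The fold was 1.88 (log2 fold change 0.91, SE 0.15, edgeR adjusted p = 0.000846). Lrrtm2 was 171, 185, 157, 169 and 164 CPM in dorsal and 123, 117, 129, 108 and 101 in ventral libraries (log2 fold change 0.55, SE 0.10, edgeR adjusted p = 0.00126). It too showed no overlap, below the fold threshold. Lrrtm1 was 27.2, 32.8, 51.4, 37.96 and 40.5 CPM in dorsal and 45.1, 36.8, 40.2, 44.98 and 42.6 in ventral libraries (log2 fold change -0.14, SE 0.16, edgeR adjusted p = 0.512). Lrrtm3, which binds the same proteoglycans, was 15.3, 20.1, 16.4, 17.4 and 15.9 CPM in dorsal and 26.8, 26.4, 16.3, 27.1 and 19.6 in ventral libraries (log2 fold change -0.44, SE 0.18, edgeR adjusted p = 0.0659). Both had negative estimates with overlapping groups and did not pass. The Lrrtm4 share of the family sum was 22.9% ± 2.09 in dorsal libraries (20.2% to 25.9%) and 15.4% ± 3.07 in ventral ones (11.4% to 20.1%), without overlap. Gm4409, on the other strand, covers 25.1% of the exonic length of Lrrtm4. Lrrtm1, Lrrtm2 and Lrrtm3 lie within alpha-catenin genes, and none of these hosts was called dorsal-enriched. Ctnna1, host of Lrrtm2, had log2 fold change -0.49, SE 0.16, edgeR adjusted p = 0.0296, Ctnna2, host of Lrrtm1, had log2 fold change -0.15, SE 0.13, edgeR adjusted p = 0.373, and Ctnna3, host of Lrrtm3, did not pass the filter.

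All 5 Slitrks, receptors for the LAR-type phosphatases, had positive estimates, and 2 passed. Slitrk5 (chr14:111675097-111683141) was 55.6, 61.1, 83.8, 66.4 and 73.2 CPM in dorsal libraries 1 to 5 and 49.9, 53.4, 27.6, 40.1 and 35.3 in ventral libraries 1 to 5. The groups did not overlap, and the fold was 1.65 (log2 fold change 0.73, SE 0.17, edgeR adjusted p = 0.00626). Slitrk2 (chrX:66649318-66661393) was 84.5, 39.6, 52.7, 73.8 and 64.6 CPM in dorsal and 53.3, 43.1, 38.6, 36.4 and 36.1 in ventral libraries (log2 fold change 0.59, SE 0.19, edgeR adjusted p = 0.0285). Its groups overlapped, with dorsal libraries 2 and 3 among the ventral values. Slitrk3, which acts at inhibitory synapses through PTP-delta, was 66.99, 53.8, 100.2, 69.8 and 75.04 CPM in dorsal and 48.4, 50.2, 50.5, 46.1 and 52.3 in ventral libraries (log2 fold change 0.56, SE 0.15, edgeR adjusted p = 0.0113), without overlap and under the fold threshold. Slitrk1 was 73.3, 82.4, 86.5, 89.4 and 91.7 CPM in dorsal and 75.7, 64.5, 80.4, 75.9 and 71.7 in ventral libraries (log2 fold change 0.20). Slitrk4 was 158, 153, 136, 155 and 156 CPM in dorsal and 142, 169, 113, 114 and 93.7 in ventral libraries (log2 fold change 0.27). Both overlapped. No Slitrk changed its share of the family sum without overlap, and that of Slitrk5 was 18.7% ± 1.996 in dorsal and 15.1% ± 2.67 in ventral libraries.

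Of the FLRTs, Flrt2 (chr12:95692226-95785215) was 92.2, 146, 122, 105 and 124 CPM in dorsal libraries 1 to 5 and 81.01, 70.8, 90.8, 79.7 and 69.3 in ventral libraries 1 to 5. Dorsal library 1 was the lowest of its group at 92.2 CPM and still above the highest ventral library at 90.8. The fold was 1.51 (log2 fold change 0.59, SE 0.13, edgeR adjusted p = 0.00439). Flrt3 went the other way by estimate, at 50.99, 29.7, 23.4, 34.5 and 30.7 CPM in dorsal and 46.7, 53.7, 41.5, 40.9 and 37.01 in ventral libraries (log2 fold change -0.39, SE 0.18, edgeR adjusted p = 0.119), and did not pass. Flrt1 was 9.03, 8.84, 8.31, 9.85 and 7.62 CPM in dorsal and 12.1, 14.97, 7.18, 12.5 and 9.44 in ventral libraries (log2 fold change -0.35, SE 0.21, edgeR adjusted p = 0.222). Flrt2 made up 64.3% ± 9.204 of the family sum in dorsal and 48.2% ± 5.2001 in ventral libraries, and only dorsal library 1, at 49.8%, reached into the ventral range.

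**Figure D3:**
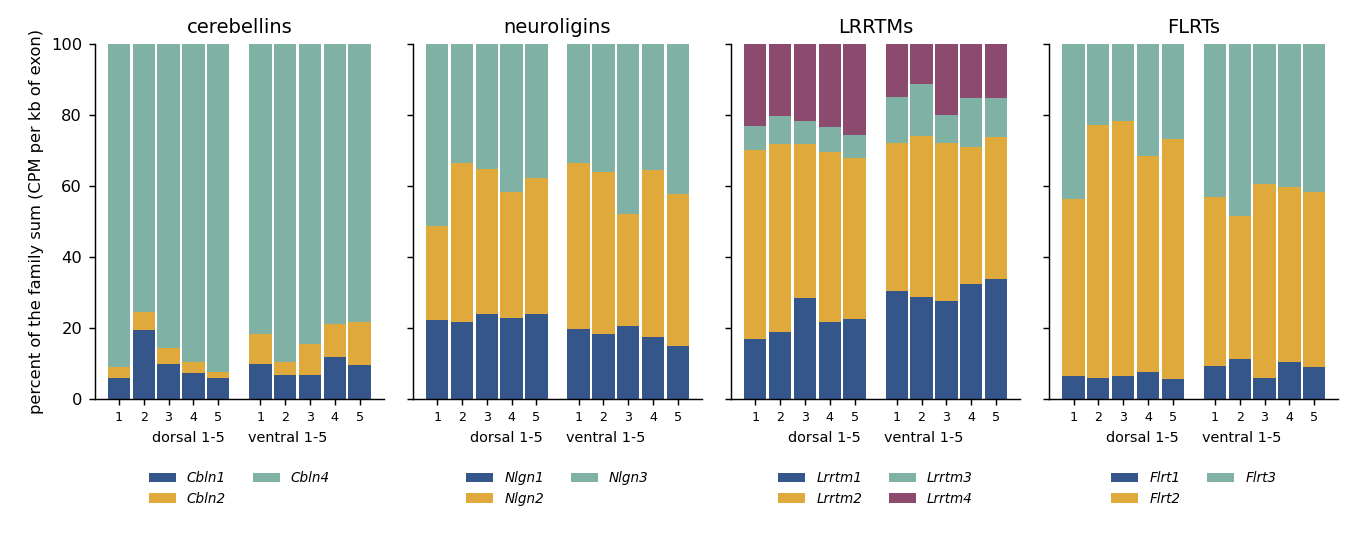
Share of each gene in its family sum (CPM per kilobase of exon, percent) for every library in 4 families that hold a called gene. The LRRTM panel shows a wider Lrrtm4 band in the dorsal libraries (20.2% to 25.9%) than in the ventral ones (11.4% to 20.1%), and the neuroligin panel a wider Nlgn1 band.

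Among the remaining 9 receiving-side genes, 0 passed. For the SALMs the log2 fold changes were 0.05 for Lrfn1, 0.89 for Lrfn2, -0.42 for Lrfn3, 0.10 for Lrfn4 and 0.09 for Lrfn5. Lrfn5 led the family at 49.8% ± 8.24 and 46.5% ± 3.04 of its sum. Lrfn2 had a large estimate on few reads, 2.26 to 4.35 CPM in dorsal and 0.591 to 2.83 in ventral libraries from counts of 7 to 67, and missed the threshold (edgeR adjusted p = 0.0855). Il1rapl1, linked to X-linked intellectual disability, was 33.4 ± 6.58 CPM in dorsal and 25.03 ± 7.98 in ventral libraries (log2 fold change 0.42, SE 0.21, edgeR adjusted p = 0.133). The calsyntenins gave -0.20 for Clstn1, 0.33 for Clstn2 and -0.26 for Clstn3. Clstn2 held 32.9% ± 5.47 of the calsyntenin sum in dorsal libraries (27.3% to 41.7%) and 24.8% ± 1.42 in ventral ones (23.2% to 27.1%), so its share differed without overlap while its level did not pass (edgeR adjusted p = 0.0653).

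**Figure D4:**
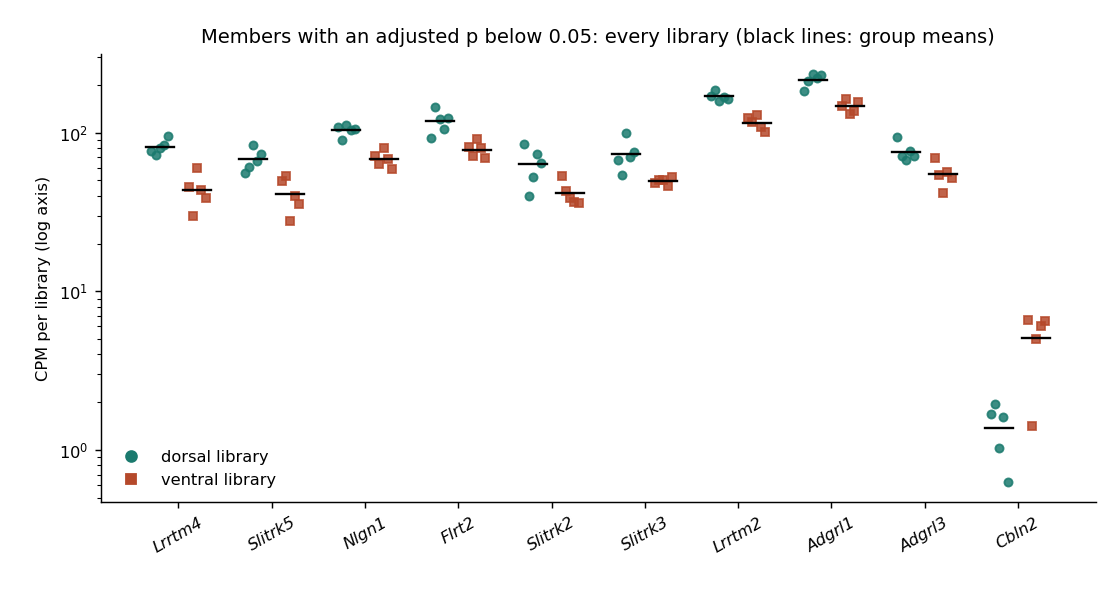
CPM of every library (log axis) for the 10 genes with an adjusted p below 0.05, dorsal as circles and ventral as squares, with black lines for group means. The dorsal and ventral points are separate for Lrrtm4, Slitrk5, Nlgn1, Flrt2, Slitrk3, Lrrtm2 and Adgrl1, and overlap for Slitrk2, Adgrl3 and Cbln2.

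Promoter windows of the 5 dorsal-enriched genes are shown because these genes carry the dorsal calls. The sequences are from RefSeq (build GRCm38.p6), 250 bases before an annotated start site, cut where an exon annotated by GENCODE M21 begins. Windows were given for 29 of the 39 genes. Both strands were searched for the letters TGACGTCA (cyclic AMP response element), CACGTG (E-box), GGGCGG (GC box), TATAAA (the usual TATA box) and CCAAT, and matches are in capitals.
Lrrtm4 (chr6:80018627-80018876, plus strand): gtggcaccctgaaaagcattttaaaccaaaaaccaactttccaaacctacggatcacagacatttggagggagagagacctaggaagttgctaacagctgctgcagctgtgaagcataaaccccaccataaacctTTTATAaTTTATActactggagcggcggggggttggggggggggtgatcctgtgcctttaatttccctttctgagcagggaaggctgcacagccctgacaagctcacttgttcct
Nlgn1, at a start site within the gene (chr3:26153987-26154236, minus strand): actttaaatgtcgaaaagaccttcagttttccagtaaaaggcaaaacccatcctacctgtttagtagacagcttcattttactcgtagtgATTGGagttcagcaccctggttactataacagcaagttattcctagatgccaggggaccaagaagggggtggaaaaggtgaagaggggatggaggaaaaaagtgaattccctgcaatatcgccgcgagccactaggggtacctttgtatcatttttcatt
Flrt2 (chr12:95691976-95692225, plus strand): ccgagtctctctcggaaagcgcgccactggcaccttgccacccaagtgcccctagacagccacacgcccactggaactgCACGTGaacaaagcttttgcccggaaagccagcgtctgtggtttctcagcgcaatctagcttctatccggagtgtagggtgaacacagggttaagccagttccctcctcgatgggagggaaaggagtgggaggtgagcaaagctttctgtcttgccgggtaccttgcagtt
Slitrk2, at the start of the gene (chrX:66649068-66649317, plus strand): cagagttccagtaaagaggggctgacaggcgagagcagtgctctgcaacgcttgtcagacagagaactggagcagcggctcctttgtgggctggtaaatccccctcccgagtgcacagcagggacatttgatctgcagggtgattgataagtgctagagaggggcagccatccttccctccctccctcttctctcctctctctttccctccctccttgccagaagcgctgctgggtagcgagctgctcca
Slitrk2, at a start site within the gene (chrX:66652909-66653006, plus strand): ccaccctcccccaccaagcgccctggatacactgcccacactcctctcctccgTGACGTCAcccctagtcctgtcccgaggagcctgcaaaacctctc
Slitrk5, at a start site within the gene (chr14:111675777-111675848, plus strand): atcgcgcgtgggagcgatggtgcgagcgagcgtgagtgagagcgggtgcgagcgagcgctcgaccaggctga
No motif was shared by all of them. The Lrrtm4 window held 2 matches to the TATA box, both on the other strand, and 12.4% of 32851 windows of the same length held at least 1. Flrt2 held an E-box (6.02% of windows held 1 or more), Nlgn1 a CCAAT box on the other strand (33.8%) and the inner Slitrk2 window a cyclic AMP response element (1.55%), which the windows of Clstn2 and Tenm3 also held. The parts of the inner Slitrk2 and the Slitrk5 windows that are not printed held 1 GC box each (32.7% of windows). The Slitrk2 window at the start of the gene held none of the motifs, nor did a further window each of Lrrtm4 and Nlgn1 that is not printed. GC content over the whole 250-base window was 49.2% for Lrrtm4, 43.6% for Nlgn1, 57.2% for Flrt2, 58.0% and 61.6% for the Slitrk2 windows and 74.8% for Slitrk5, against a median of 52.4% over all windows. A match is a description of the letters and shows no binding.

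Low GC content marked the transcripts of 4 of the 5 dorsal-enriched genes. In the longest transcript it was 37.997% for Slitrk2, 38.4% for Lrrtm4, 38.9% for Nlgn1 and 41.8% for Flrt2, all within the lowest quintile of protein-coding genes, which ended at 43.7%. Of the 9 members in that quintile, 4 were dorsal-enriched and the median log2 fold change was 0.55, against 0.02 over all protein-coding genes in it. Over all protein-coding genes, 13.5% of the lowest quintile and 8.42% of the highest were dorsal-enriched. Slitrk5, at 50.2%, was the 1 dorsal-enriched member outside it. Across the 39 genes, log2 fold change and GC content had a Pearson r of -0.27 and a Spearman rho of -0.39, a description over genes that share the same 10 libraries. Over 13544 protein-coding genes the same measures were weaker, at -0.07 and -0.10. Genomic span moved with the calls over all protein-coding genes, since 8.79% of those spanning up to 10 kb and 20.7% of those over 300 kb were dorsal-enriched. Of the 12 adhesion genes over 300 kb, 2 were.

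Library effects of GC content and exonic length were then fitted and removed, which shifted the median of all genes from -0.00 to -0.10 and the split of dorsal and ventral calls from 2636 and 1655 to 2266 and 2192. Under this correction Slitrk5 stayed dorsal-enriched (log2 fold change 0.67, edgeR adjusted p = 0.009403) and Cbln2 ventral-enriched (-2.01, adjusted p = 0.00212). The other 4 calls ended. Lrrtm4 fell to 0.46 (adjusted p = 0.0188) and Flrt2 to 0.37 (0.0336), both still under 0.05 and below the fold threshold. Nlgn1 and Slitrk2 fell to 0.13 (0.366) and 0.09 (0.743). Adgrl1, whose GC content is 59.1%, became dorsal-enriched (0.63, 0.000663), and Slitrk4, at 34.7%, turned from 0.27 to -0.61 (0.00465). The number of members with positive estimates went from 25 to 18 of 39, and 7 changed sign, among them Nrxn2, Nrxn3, Ptprd and Il1rapl1. With the share of read pairs on no gene as a covariate, 1 member, Slitrk2, was dorsal-enriched and 0 were ventral-enriched, and calls over all genes fell to 834 and 339. The log2 fold change of Slitrk5 was then 0.63 (SE 0.36, edgeR adjusted p = 0.299), and the log2 fold change of Cbln2 was -1.39 (SE 0.91, edgeR adjusted p = 0.378). The groups did not overlap on that share, so it and the region cannot be told apart. What part GC content, span or unassigned reads have in the differences was not tested further.

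**Figure D5:**
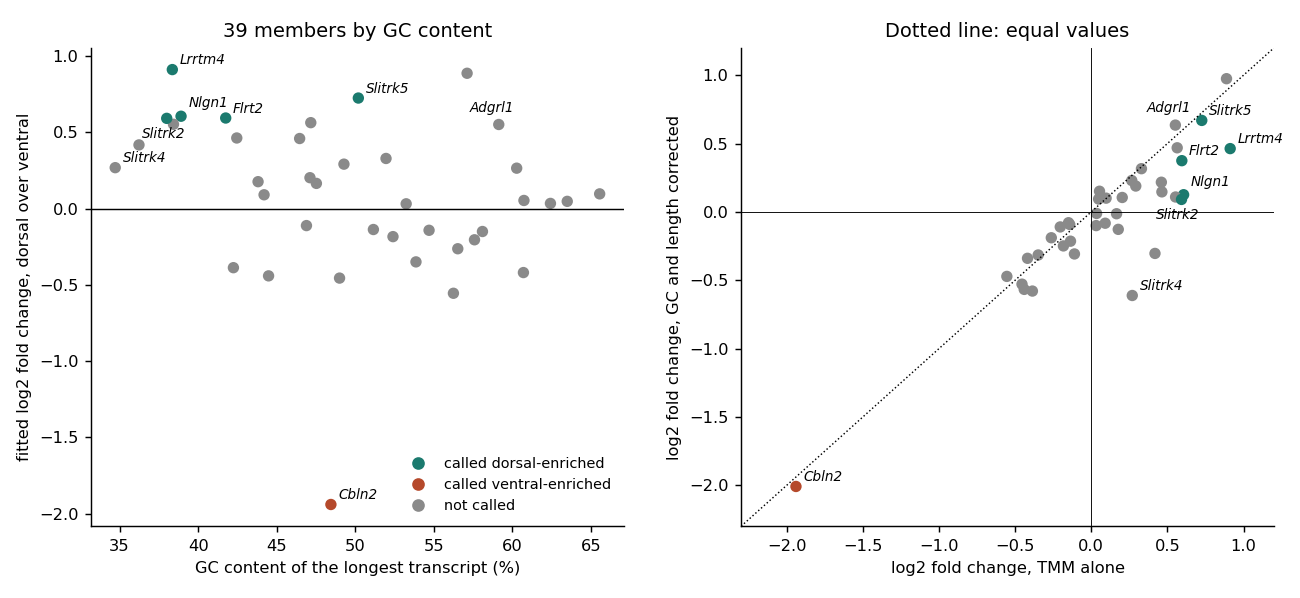
Left, fitted log2 fold change (dorsal over ventral) of the 39 genes against the GC content of the longest transcript in percent; right, the same log2 fold change without (x axis) and with (y axis) correction for GC content and exonic length. The 4 low-GC genes that are dorsal-enriched without the correction fall below the dotted line of equal values, while Slitrk5 and Cbln2 stay near it.

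Single libraries also bore on some calls. Lrrtm4, Slitrk5 and Cbln2 were called in all 10 fits that left out 1 library. Nlgn1 was called in 7 of 10 and lost its call without dorsal library 3, ventral library 2 or ventral library 5. Flrt2 was called in 5 of 10, and Slitrk2 in 4 of 10. Lrrtm4 kept log2 fold changes of 0.82 to 1.03 over these fits and Slitrk5 of 0.62 to 0.82.

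Binding partners and adaptors of these families were read as a second list of 60 genes, of which 59 passed the filter. There, 8 were dorsal-enriched (13.6%, against 15.7% of all genes) and 2 ventral-enriched (3.39%, against 9.85%), with a median log2 fold change of 0.12. Among protein-coding genes, 11.4% and 10.3% were called. Of 27 surface partners 5 were dorsal-enriched (18.5%). C1ql1, a secreted ligand of the receptor Adgrb3, had log2 fold change 1.56, SE 0.48, edgeR adjusted p = 0.0233 at 1.49 to 7.701 and 0.929 to 2.09 CPM, with overlap. Its receptor Adgrb3 was also dorsal-enriched (log2 fold change 0.89, SE 0.12, edgeR adjusted p = 0.000201), without overlap. Cadm2, a SynCAM, was 888 ± 56.1 CPM in dorsal and 451 ± 84.2 in ventral libraries (log2 fold change 0.98, SE 0.12, edgeR adjusted p = 8.07e-05), and Mdga2, which covers the neurexin site of neuroligins, had log2 fold change 0.60, SE 0.12, edgeR adjusted p = 0.00234. Adgrb3 and Mdga2 were named after their values were seen.

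Inside the cell, 3 of 17 postsynaptic adaptors were dorsal-enriched (17.6%, against 15.7% of all genes and 11.4% of protein-coding ones). With 17 genes, nothing is read from the difference between these shares. The scaffolds Shank1 (log2 fold change 0.95, SE 0.14, edgeR adjusted p = 0.000349) and Shank3 (log2 fold change 0.89, SE 0.20, edgeR adjusted p = 0.00512) and Homer1, which links them to metabotropic glutamate receptors (log2 fold change 0.62, SE 0.11, edgeR adjusted p = 0.000986), were the 3 called adaptors. Shank1 rose from 625 ± 79.4 CPM in ventral to 1205 ± 271 in dorsal libraries. Corrected for GC content and exonic length, Shank1 and Shank3 kept their calls (0.996 and 0.92), C1ql1 did too (1.60), and those of Cadm2, Adgrb3, Mdga2 and Homer1 ended, Homer1 at -0.05. Of 10 presynaptic adaptors, Lin7b was ventral-enriched (log2 fold change -0.89, SE 0.30, edgeR adjusted p = 0.0357) and was called in 4 of 10 fits without 1 library. Of 3 splicing factors that act on neurexin splice site 4, Khdrbs1 (SAM68) was ventral-enriched (log2 fold change -0.61, SE 0.16, edgeR adjusted p = 0.0125), and was called in 5 of 10.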

How the data were processed

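The 10 TRAP libraries (5 dorsal, 5 ventral) were grouped by their titles. The deposited values are raw counts of read pairs per gene. Per the labels and the study's methods, the authors made cDNA from picogram amounts of RNA with the Ovation RNA-seq V2 kit, prepared TruSeq RNA v2 libraries, sequenced 50 bp paired ends, aligned reads to GRCm38 with STAR 2.5.2b and counted with HTSeq 0.7.2 with a strand setting not given in the sources used here. No molecular identifiers were used. Rows without a gene were left out of library sizes; read pairs on no gene made up 11.6% to 33.9% of a library and ambiguous ones 5.92% to 8.66%.

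Counts were analysed with edgeR 4.0.16 in R 4.3.3 (CPM above 1 in at least 2 libraries, TMM, glmQLFit, glmQLFTest, no covariate). The filter, the quasi-likelihood method and the threshold values follow the study's methods. The scaling, the design and the fold measure were set here. This fit called 2636 genes dorsal-enriched and 1655 ventral-enriched, more in each direction than the study reports. The background shares given here are those of this fit. A call took an adjusted p under 0.05 together with a log2 ratio between group means of CPM, each plus 1, beyond 0.58 either way. Library measures were compared by exact permutation over all 252 arrangements. Positions, exonic lengths and GC content come from GENCODE M21. The fit was tested on simulated counts. Alternatives covered DESeq2 1.42.0, other scalings, filters, thresholds, a replicate block, corrections for GC content, length and span, covariates, and leaving out each library. The labels do not say that pools were separate in time or litter, so p-values measure the spread between pools. Libraries of a group were also compared in pairs by a chi-square score of their counts, scaled by its degrees of freedom. A lower score means more alike libraries. It was 4.36 for dorsal libraries 4 and 5 and 8.11 for dorsal libraries 3 and 5. Other dorsal pairs gave 17.3 to 40.7, and ventral pairs 14.4 to 45.1. The p-values treat the 5 dorsal libraries as equally independent, and whether they are was not tested.

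Members and lists were chosen with earlier results of these data known. Values of every library are given for called members and for members of families with a called member, and of the partners up to 3 per list and direction with the largest log2 ratio are named; 1 partner is not reported here by name. Sequences are printed for called members of families whose members differ in direction or size of change; none is printed for Cbln2.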

Additional observations from a re-analysis of the deposited data

Results flagged for a closer look

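Over 78 groups of 5 libraries, 1 for each gene and region, 4 held a library set apart from the other 4 by Dixon's test at the 95% level, which chance alone flags in about 1 of 20 groups. Ptprs was at 86.4 CPM in dorsal library 1 and at 186 to 209.5 in the other dorsal libraries. Cbln1 was at 7.93 CPM in dorsal library 2 and at 2.36 to 3.72 in the others. Slitrk4 was at 136 CPM in dorsal library 3 and at 153 to 158 in the others. Clstn1 was at 99.1 CPM in ventral library 3 and at 145 to 163 in the others. None of these genes was called with all libraries in.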

How the results depend on the processing

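Over 17 processing alternatives, Cbln2 and Slitrk5 kept their calls in 16 and lost them only with the share of read pairs on no gene as a covariate, where the log2 fold change of Cbln2 was -1.39 and the log2 fold change of Slitrk5 was 0.63; Lrrtm4, Nlgn1, Flrt2 and Slitrk2 kept theirs in 13. Against 5 dorsal- and 1 ventral-enriched members, upper-quartile factors gave 8 and 1, no fold threshold 9 and 1, the covariate 1 and 0, and GC content corrected with exonic length or with span 2 and 2. Slitrk4 reversed to -0.61 with GC content and exonic length corrected and to -0.59 with the replicate block added, and Homer1 to -0.0495 and -0.0479. The receiving-side median of 0.24 became 0.10 with GC and length, 0.0555 with GC and span, and 0.0778 with GC, length and block. Dorsal libraries and ventral libraries share replicate numbers, but whether the same number means the same mice is not stated in the sources used here. Same-numbered libraries did not deviate together (mean r 0.0159, against -0.00207 for different numbers). A replicate block gave 5 and 1 member calls and medians of 0.16 (axon side) and 0.25 (receiving side); with GC and length corrected it gave 3 and 2, a median of -0.02 for the axon side, and 5 and 4 partner calls. Partner calls of 8 dorsal and 2 ventral became 4 dorsal with GC and length, 5 with GC and span, 13 and 6 with no fold threshold, and 4 and 0 with the covariate. Ventral partner calls were 1 with DESeq2 size factors or its Wald test, upper-quartile factors, CPM above 1 in at least 5 libraries, protein-coding genes alone or the older edgeR dispersions, and 0 at an adjusted p below 0.01. The older edgeR dispersions, and the alternatives for partner genes, were chosen after seeing the data. Leaving out 1 library gave 3 to 7 dorsal and 1 to 2 ventral member calls; the 3 came without dorsal library 3, dorsal library 5 or ventral library 5, and the 2 without dorsal library 2. Partner calls were 5 (without ventral library 5) to 10 dorsal and 0 to 3 ventral, with 0 without dorsal library 5, ventral library 1 or ventral library 4, and 1 without dorsal library 3, dorsal library 4, ventral library 2 or ventral library 5. Medians ran from 0.04 to 0.20 (axon side) and 0.19 to 0.28 (receiving side). Differences in family share, dorsal minus ventral in percentage points, ran from -6.06 to -3.96 for Cbln2, 3.91 to 5.31 for Nlgn1, 6.53 to 8.69 for Lrrtm4, 0.243 to 2.14 for Slitrk2, 2.505 to 4.28 for Slitrk5 and 14.1 to 19.7 for Flrt2. The cause of these changes was not tested. At these depths 3 counts were worth 0.142 to 0.282 CPM, and the lowest count in a library was 8 for Cbln2 and 7 for Lrfn2.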
